A study of Saccharomyces cerevisiae with 11 samples.

Results

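Transcript levels on day 20 of retentostat culture were set against those on day 2 in a Saccharomyces cerevisiae strain that lacks RIM15. The comparison takes 4 of the 11 arrays of the series, 2 cultures on each day, and pairs them by culture. Each culture was sampled on both days, so every difference is a change within a culture. Of the 9335 probe sets on the array, 6504 were annotated to exactly 1 gene. They represent 5656 genes, of which 5547 were tested and 109 were left out because they lay at or under a signal floor of 12 on all 4 arrays.

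All cells were of the rim15 deletion mutant of the prototrophic laboratory strain CEN.PK113-7D, so day 20 and day 2 share the deletion and the wild type was not analysed here. They grew at 30 °C and pH 5.0 without oxygen, on synthetic medium with 50 g of glucose per litre as the limiting nutrient, in a working volume of 1.4 l. The day 20 group and the day 2 group hold the same pair of retentostat cultures, each started from a chemostat culture of its own at a dilution rate of 0.025 per h. Arrays of the same cultures on days 9 and 16 entered the test only as a measure of the spread around a culture's course, and the chemostat arrays entered only a check of the scaling, the choice of probe set and alternative fits.

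A retentostat feeds medium like a chemostat but filters the outflow, so that cells stay in the vessel. The same glucose feed is then shared among more and more cells, most of the sugar goes into maintenance, and division slows towards a standstill while the cells remain metabolically active. Rim15 is a protein kinase that, when nutrient signalling through protein kinase A and TORC1 is low, helps yeast to enter the resting state and to express stress genes. Without oxygen, yeast cannot make sterols and unsaturated fatty acids from sugar alone and carries out little respiration.

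The RIM15 (YFL033C) probe set gave signals of 2.7 and 1.1 on day 20 (cultures 1 and 2), and of 5.4 and 1.6 on day 2. All 4 values lie under the floor, so RIM15 was not among the genes tested. No source states which stretch of the gene the probe set covers, so the low signals bear on the labels only if that stretch was deleted.

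Median signals were 115.1 and 122.1 on the day 20 arrays of cultures 1 and 2, and 93.6 and 98.5 on the day 2 arrays. The ratio of the 3' to the 5' control probe set of ACT1 (actin), a measure of how complete the labelled transcripts were, was 1.62 in culture 1 and 31.8 in culture 2 for day 20, and 1.49 and 1.94 for day 2. The day 20 array of culture 2 therefore stands apart, and changes are given for each culture. Log2 signals of the paired cultures correlated at 0.958 on day 20 and 0.959 on day 2. The correlation was 0.890 on day 9 and 0.870 on day 16, where the culture 2 arrays also had high ACT1 ratios of 27.0 and 217. On the array as a whole, the median log2 difference of the genes tested was 0.23 (0.21 in culture 1 and 0.23 in culture 2), so differences of lists are best read against that value. The labels describe mRNA from a whole culture, and fewer cells with a transcript and less of it per cell cannot be told apart.

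Over the whole array, the largest falls were in genes for iron uptake and the rises were mostly in small non-coding RNAs and transcripts of the mitochondrial genome. On day 20, 29 genes were higher and 13 were lower than on day 2 (limma on the 8 retentostat arrays with a term for culture, adjusted p under 0.05). These are 0.523% and 0.234% of the genes tested, together 42 genes or 0.757%, and 916 genes had an unadjusted p under 0.05. All 42 moved at least 2-fold in both cultures with no overlap between the days. For comparison, both day 20 arrays lay above both day 2 arrays for 42.7% of all genes tested and below them for 13.1%, and 3.41% were at least 2-fold higher and 1.41% at least 2-fold lower in both cultures. A fit on the 4 compared arrays alone, which takes no spread from days 9 and 16 and has 1 residual degree of freedom, called 546 genes higher (9.84%) and 180 lower (3.24%), the 42 genes among them. With any 1 of the 4 arrays left out, limma called 0 genes, and 371 to 731 had an unadjusted p under 0.05.

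**Figure D1:**
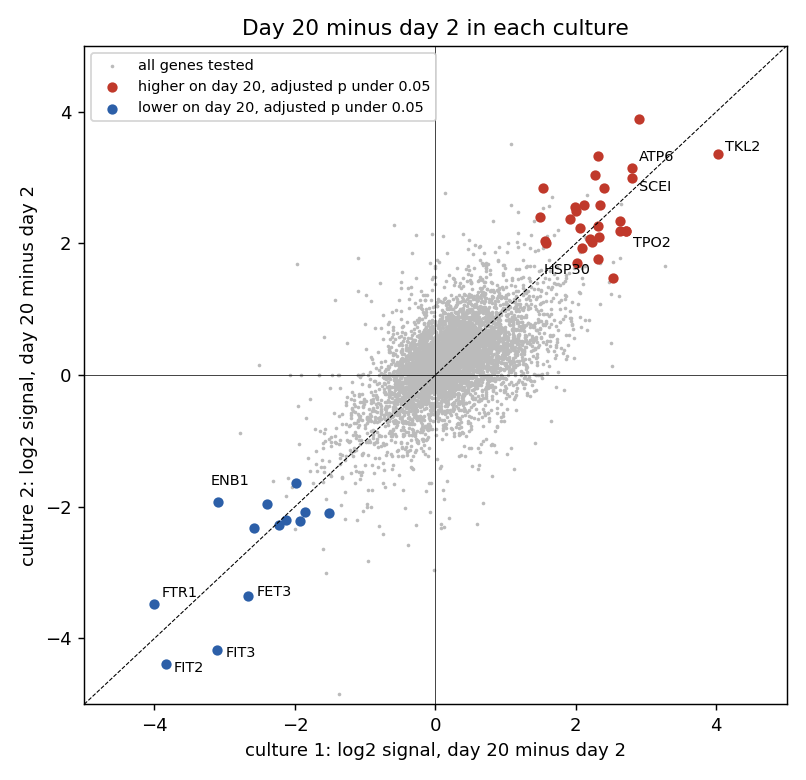
Log2 signal on day 20 minus day 2 in culture 1 (x axis) against culture 2 (y axis) for each of 5547 genes tested; red and blue points are the 29 genes higher and the 13 genes lower at an adjusted p under 0.05, and the dashed line marks equal change. The genes called lower lie between -4.01 and -1.51 in culture 1 and between -4.38 and -1.64 in culture 2, with FIT2, FIT3, FTR1 and FET3 at the far end.

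The changes of the 2 cultures had the same sign for 71.5% of the genes and correlated at 0.591 across genes, which are not independent replicates. The plot of one culture against the other shows the called genes at both ends of that cloud. Among the 29 rises the log2 difference ran from 1.50 to 4.02 in culture 1 and from 1.47 to 3.89 in culture 2. The rise was larger in culture 2 for 16 of 29 genes, and the fall was larger there for 8 of 13.

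Genes for the uptake of iron gave 6 of the 13 falls. Yeast takes up iron either by reducing it at the cell surface and importing it through an oxidase and permease pair, or by importing it bound to siderophores, iron carriers made by other microbes. FIT2 (YOR382W) encodes a mannoprotein of the cell wall that holds siderophore-bound iron. It had signals of 311.5 and 189.7 on day 20 and of 4466.0 and 3961.8 on day 2. The days are far apart, and FIT2 fell 17.3-fold (log2 difference -4.11 ± 0.30 SE, n = 2 cultures, limma adjusted p = 0.00322), the largest fall of any gene called. FIT3 (YOR383C), a second mannoprotein of that family, had 894.0 and 316.8 on day 20 against 7703.0 and 5744.1 on day 2. It fell by 3.64 ± 0.53 on the log2 scale (limma adjusted p = 0.0238), more in culture 2 (-4.18) than in culture 1 (-3.11).

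The oxidase and the permease of the reductive route fell together. FTR1 (YER145C), the high-affinity iron permease, had signals of 78.2 and 69.9 on day 20 and of 1261.6 and 777.0 on day 2, a fall of 13.4-fold (log2 difference -3.74 ± 0.33 SE, limma adjusted p = 0.00654). FET3 (YMR058W), the multicopper oxidase that works with Ftr1, had 98.0 and 59.2 on day 20 and 619.9 and 606.1 on day 2, a fall of 8.05-fold (-3.01 ± 0.29, limma adjusted p = 0.00654). Neither gene had any overlap between the days. FRE5 (YOR384W), a putative ferric reductase, was under the floor on day 20 (3.8 and 1.8) and above it on day 2 (34.2 and 51.3), at least 3.56-fold lower on day 20. Both of its day 20 signals were set to the floor, so it entered the test through day 2 alone and its p-value is not given. FIT2, FIT3 and FRE5 are next to each other in the gene table.

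Of the siderophore transporters, ENB1 (YOL158C), which imports enterobactin, had signals of 111.6 and 125.5 on day 20 and of 952.7 and 477.1 on day 2 and fell 5.70-fold (log2 difference -2.51 ± 0.33 SE, limma adjusted p = 0.0183). ARN1, a transporter for ferrichrome-type siderophores, had 384.1 and 300.6 on day 20 against 1243.3 and 766.7 on day 2 (log2 difference -1.52). SIT1, the ferrioxamine transporter, had 109.2 and 101.7 on day 20 against 211.7 and 722.6 on day 2 (-1.89). ARN1 and SIT1 passed only on the 4 compared arrays alone, where the list had 11 of 28 members lower and 0 higher, against 3.24% and 9.84% of all genes. The other 3 of the 11 were HMX1 (haem oxygenase), TIS11 (an RNA-binding protein that destabilises mRNAs of iron-using proteins) and AFT1 (the transcription factor of the iron regulon), at -1.27, -1.53 and -0.94.

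The iron list held members on both sides of 0. Its median log2 difference was -0.34 over 28 members tested of 29, against 0.23 for all genes, and 16 of the 28 were below 0 in both cultures, as were 19.9% of all genes. The 17 members past neither test ranged from -0.85 to 0.70. FIT1, the third mannoprotein of the family, had 110.9 and 68.8 on day 20 and 84.0 and 70.3 on day 2, so its days overlap. FET4, a low-affinity iron transporter, lay higher on day 20 (549.4 and 522.9, against 283.1 and 384.3 on day 2), and the vacuolar permease FTH1 stood at 654.3 and 694.8 on day 20 and at 754.6 and 663.3 on day 2.

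Most of the fall in the iron genes was present by day 9. The plot of signal by day shows FIT2 signals of 4466.0, 336.0, 140.5 and 311.5 in culture 1 over days 2, 9, 16 and 20, and of 3961.8, 210.2, 133.2 and 189.7 in culture 2. FIT3 in culture 2 had 5744.1, 188.1, 80.6 and 316.8 over the same days, so that its lowest signal came before the last day. Of the 13 genes that fell, 12 had passed 0.5 of their day 20 log2 change by day 9 and all 13 by day 16, whereas of the 29 that rose, 14 had done so by day 9 and all 29 by day 16. No test was made of when a change began.

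**Figure D2:**
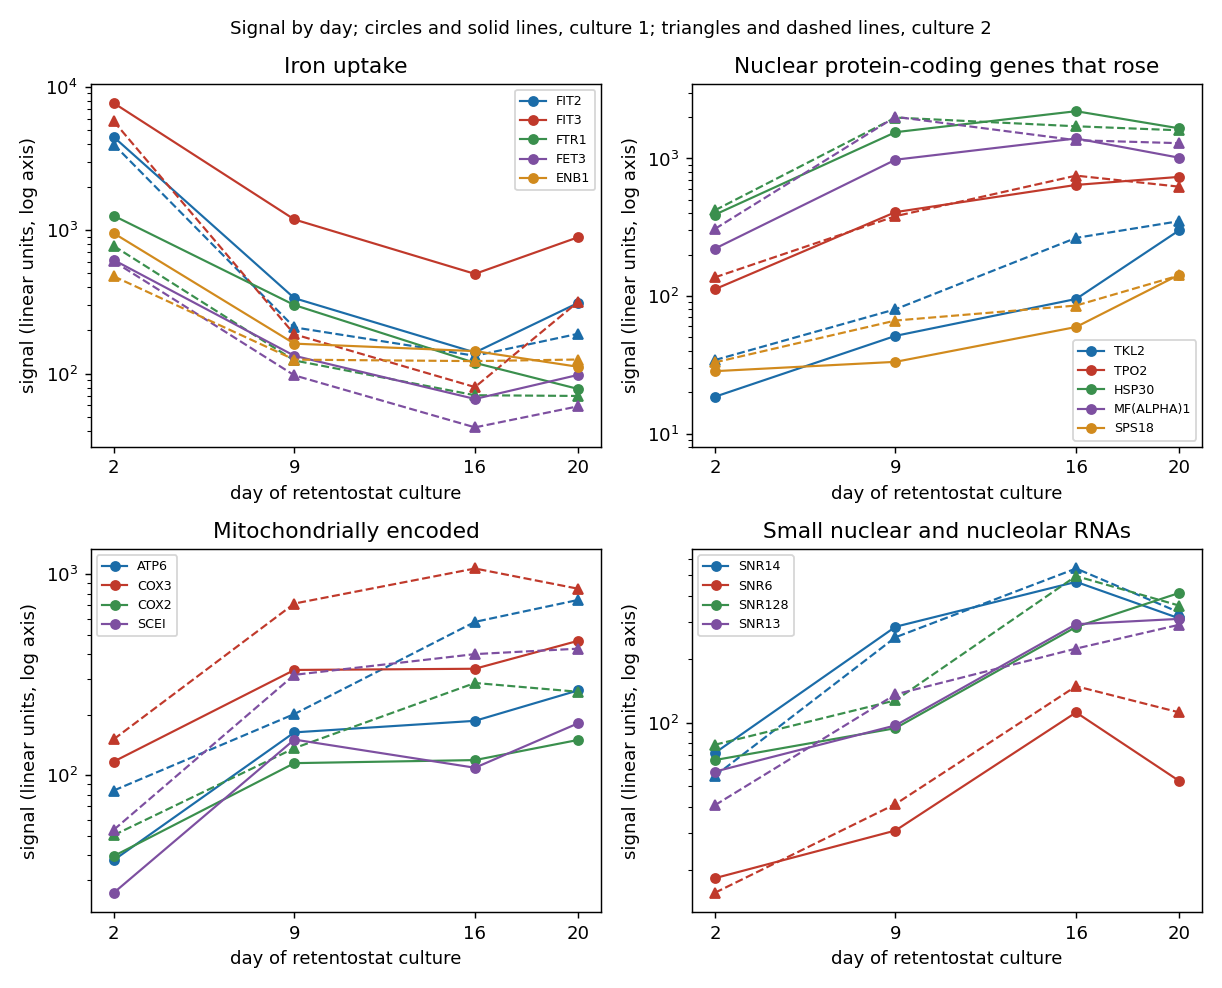
Signal in linear units on a log axis on days 2, 9, 16 and 20 for iron uptake genes, nuclear protein-coding genes that rose, mitochondrially encoded genes and small nuclear and nucleolar RNAs; solid lines with circles are culture 1 and dashed lines with triangles culture 2. The iron genes drop mainly before day 9, while TKL2 and SPS18 have their highest signals on day 20 (300.6 and 350.1 for TKL2, 142.8 and 141.1 for SPS18).

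The other 7 falls were PLB2, IZH4, SAM4, YMR317W, INA1, ERG20 and RGI2. PLB2 (YMR006C), a phospholipase B, had signals of 98.5 and 108.9 on day 20 and of 590.8 and 545.3 on day 2, a fall of 5.48-fold (log2 difference -2.45 ± 0.37 SE, limma adjusted p = 0.0281). IZH4 (YOL101C), a membrane protein linked to zinc metabolism, had 93.6 and 116.7 on day 20 against 438.0 and 568.2 on day 2 (fall of 4.77-fold, limma adjusted p = 0.0189). In both genes the days do not overlap.
SAM4 (YPL273W), which makes methionine from homocysteine and S-adenosylmethionine, was under the floor on day 20 (3.2 and 1.5) and had 63.5 and 46.7 on day 2, at least 4.59-fold lower on day 20. As with FRE5, both of its day 20 signals were set to the floor, so its p-value is not given. RGI2 (YIL057C), a protein of energy metabolism, had 221.9 and 333.7 on day 20 against 880.1 and 1042.0 on day 2 (fall of 3.52-fold). INA1 (YLR413W) and YMR317W fell 4.21-fold and 4.50-fold. None of these genes had overlapping days.

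Ergosterol genes lay lower on day 20 almost throughout, though ERG20 alone passed on the 8 arrays. The list holds the enzymes from acetyl-CoA to ergosterol, sterol transporters and their regulators, and 29 of its 34 members were below 0 in both cultures, where 19.9% of all genes were. Its median log2 difference was -0.69 (-0.60 in culture 1 and -0.81 in culture 2), against 0.23 for all genes. ERG20 (YJL167W), farnesyl pyrophosphate synthase, had signals of 102.8 and 99.5 on day 20 and of 372.8 and 419.1 on day 2, a fall of 3.91-fold (log2 difference -1.97 ± 0.33 SE, limma adjusted p = 0.0412). On the 4 compared arrays alone 13 members passed, all lower, against 3.24% of all genes.

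Of those 13, DAN1 is a cell-wall mannoprotein linked to sterol uptake and is also counted with its family further on, and the other 12 act along the pathway. Before squalene, HMG1 (HMG-CoA reductase) had 438.9 and 310.1 on day 20 against 1102.7 and 719.9 on day 2. MVD1 (mevalonate pyrophosphate decarboxylase) had 603.7 and 494.6 on day 20 against 1394.6 and 1385.3 on day 2. The days of neither gene overlap, and the log2 differences were -1.27 and -1.35.
Of the enzymes that need oxygen, ERG1 (squalene epoxidase) had 1028.8 and 889.5 on day 20 against 2273.4 and 2313.8 on day 2, and ERG3 (C-5 sterol desaturase) had 3612.9 and 2506.6 against 8304.2 and 5688.3 on day 2. ERG11, the lanosterol demethylase, had 2760.6 and 2750.9 on day 20 against 4022.9 and 4642.3 on day 2 and passed neither test (limma adjusted p = 0.564 on the 8 arrays). CYB5, the cytochrome b5 that passes electrons to sterol and lipid enzymes, had 193.5 and 205.2 on day 20 against 846.1 and 731.2 on day 2 (log2 difference -1.98, limma adjusted p = 0.0556). Some regulators on the list lay above 0. ECM22, a sterol-responsive transcription factor, had 707.8 and 764.5 on day 20 against 537.7 and 378.8 on day 2, and SUT1, a regulator of sterol uptake, had 1321.6 and 1578.7 against 957.2 and 1292.9.

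**Figure D3:**
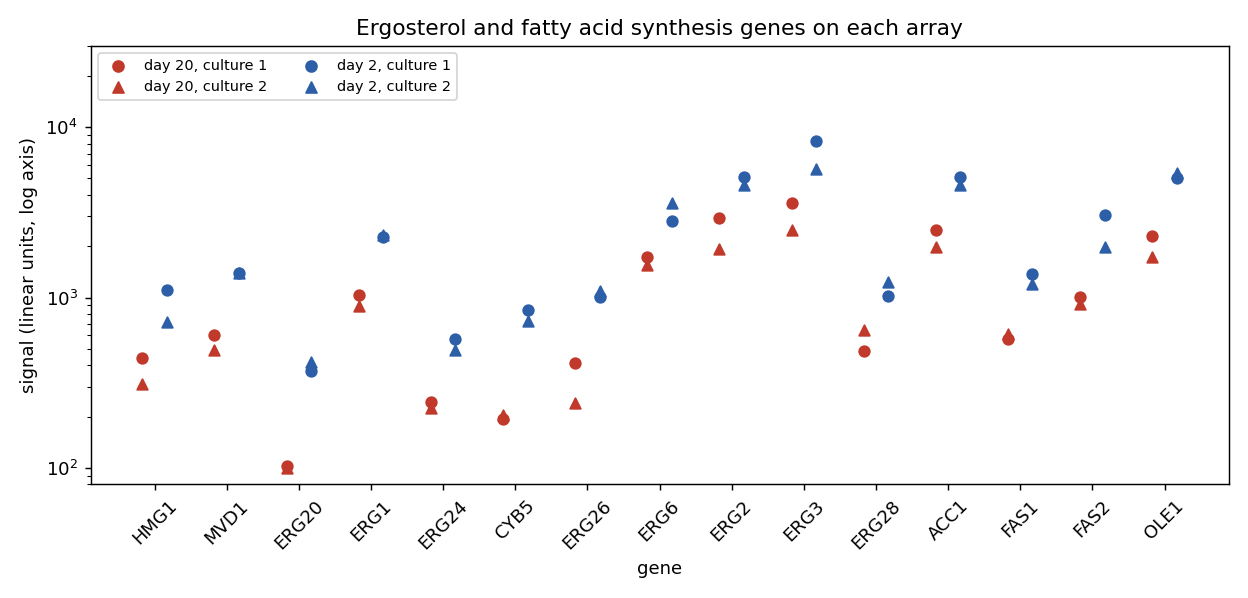
Signal in linear units on a log axis for 11 genes of the ergosterol list and 4 of fatty acid synthesis; red is day 20 (left of each pair) and blue day 2, with circles for culture 1 and triangles for culture 2. The 15 genes were picked from those lower on the 4 compared arrays alone, so the red points lie below the blue ones by choice. ERG20 also passed on the 8 retentostat arrays. Members of these lists that passed neither test or lay higher on day 20, such as ERG11, ECM22 and SUT1, are not shown.

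The list of fatty acid and phospholipid synthesis had 17 of 41 members above 0 and 14 below 0 in both cultures, 41.5% and 34.1% against 51.6% and 19.9% of all genes. On the 4 compared arrays alone 14.6% of the list were lower and 4.88% higher, against 3.24% and 9.84% of all genes. ACC1 (acetyl-CoA carboxylase, the first step) had signals of 2477.3 and 1987.6 on day 20 and of 5094.7 and 4601.9 on day 2. OLE1, the oxygen-dependent desaturase, had 2300.0 and 1736.7 on day 20 against 5065.1 and 5381.9 on day 2. FAS1 and FAS2, the subunits of fatty acid synthase, were at log2 differences of -1.12 and -1.36. These 4, picked out after their values were seen, passed on the 4 compared arrays alone, with INO2 (the activator of phospholipid genes, -1.36) and PLB2 also lower and INO4 and DGA1 higher, while the median over the 41 members was 0.10.

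Cell-wall mannoprotein genes of the seripauperin and DAN/TIR families, which yeast expresses without oxygen, had a median log2 difference of -0.66. In both cultures 18 of 18 members measured were below 0, as were 19.9% of all genes. None passed on the 8 arrays, and 6 passed, all lower, on the 4 compared arrays alone, 33.3% against 3.24% of all genes. DAN1 had signals of 2411.5 and 1575.9 on day 20 against 4255.1 and 4139.9 on day 2 (log2 difference -1.11). TIR3 had 1934.0 and 1736.9 on day 20 against 3854.1 and 3029.6 on day 2, and TIR1 had 7123.5 and 7249.4 against 9845.3 and 8761.1. The seripauperins are near-identical, and 10 of the 18 probe sets cannot fully separate members, so these are not 18 separate readings.

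Outside that family, FLO11 (a flocculin of the cell surface) had 610.0 and 608.4 on day 20 against 2442.9 and 3068.3 on day 2 (log2 difference -2.17, limma adjusted p = 0.0717), and its relative FLO10 had 145.8 and 145.1 against 47.5 and 43.0 (1.69, limma adjusted p = 0.117). Neither passed on the 8 arrays and both did on the 4 compared arrays alone, in opposite directions.

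Of the nuclear protein-coding genes, 7 rose. TKL2 (YBR117C), the minor isoform of the pentose phosphate enzyme transketolase, had signals of 300.6 and 350.1 on day 20 and of 18.5 and 34.2 on day 2, a rise of 12.9-fold (log2 difference 3.69 ± 0.34 SE, n = 2 cultures, limma adjusted p = 0.00654). Both other probe sets for TKL2 also rose, by 3.11 and 3.63 on the log2 scale. TPO2 (YGR138C), a plasma membrane exporter of polyamines, had 734.8 and 623.4 on day 20 and 112.0 and 136.6 on day 2, a rise of 5.47-fold (2.45 ± 0.28, limma adjusted p = 0.0143). The TPO2 probe set carries a suffix given where a full set of unique probes could not be chosen. HSP30 (YCR021C), a plasma membrane stress protein that acts on the proton pump, had 1655.6 and 1602.2 on day 20 against 390.2 and 419.8 on day 2, a rise of 4.02-fold (limma adjusted p = 0.0238). In TPO2 and HSP30 the cultures lie close together on each day and the days far apart.

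SPS18 (YNL204C), a zinc-finger gene expressed in sporulation, had signals of 142.8 and 141.1 on day 20 and of 28.4 and 32.9 on day 2, a rise of 4.64-fold (limma adjusted p = 0.0238). A dimmer SPS18 probe set gave a log2 difference of 1.24 against 2.22 and did not pass. FYV7 (YLR068W), needed for ribosomal RNA processing, had 119.3 and 137.3 on day 20 against 29.5 and 42.1 on day 2 (rise of 3.63-fold). YOR072W-B rose 3.86-fold by the probe set used, while another of its probe sets gave -0.18, so its direction rests on 1 probe set.

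MF(ALPHA)1 (YPL187W), which encodes the alpha-factor pheromone, had signals of 1012.2 and 1291.4 on day 20 and of 220.9 and 307.4 on day 2, a rise of 4.39-fold (log2 difference 2.13 ± 0.32 SE, limma adjusted p = 0.0281). CEN.PK113-7D is of mating type a, in which alpha-specific genes are normally little expressed. All 4 alpha-specific genes measured lay above 0 in both cultures, as did 51.6% of all genes. All 4 also passed, higher, on the 4 compared arrays alone, where 9.84% of all genes did. MF(ALPHA)2 had 42.6 and 38.4 on day 20 against 21.6 and 10 on day 2, SAG1 (alpha-agglutinin) had 311.1 and 384.4 against 181.8 and 132.8, and STE3 (the a-factor receptor) had 289.3 and 212.7 against 134.4 and 125.9. With each array centred on its median, MF(ALPHA)1 was the only one of the 4 to pass on those arrays.

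The a-specific genes held no call in either fit, with a median log2 difference of -0.07 over 7 members (-0.30 without the day 20 array of culture 2). All 7 were above the floor on all 4 arrays, and their summed signal was 15413 and 18484 on day 20 and 21683 and 18795 on day 2. The summed signal of the 4 alpha-specific genes was 1655 and 1927 on day 20 and 559 and 576 on day 2. The markers of sporulating cells summed to 336 and 438 on day 20 and to 299 and 357 on day 2, with 6 of 7 above the floor on every array. The part of cells of another type in these values was not tested.

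Silencing genes keep the spare mating-type copies and telomeres shut. DOT1, a histone methyltransferase, had signals of 119.3 and 262.0 on day 20 against 39.5 and 60.4 on day 2, and SIR2, the histone deacetylase of silent chromatin, had 591.6 and 791.9 against 307.4 and 313.4. With SIR1 and HST1 they were the 4 of 13 members that passed on the 4 compared arrays alone (30.8%, against 9.84% of all genes called higher), and none passed on the 8 arrays. The list's median was 0.27, against 0.23 for all genes. It was 0.51 without the day 20 array of culture 2 and turned to -0.03 when each array was centred on its median.

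Of the transcripts of the mitochondrial genome, 5 rose and none fell. The protein genes encoded there had a median log2 difference of 1.34 over 14 tested of 19, with 5 rises on the 8 arrays and 10 on the 4 compared arrays alone, against 0.523% and 9.84% of all genes. ATP6 (Q0085), a subunit of the mitochondrial ATP synthase, had signals of 264.2 and 744.6 on day 20 and of 37.8 and 83.9 on day 2, a rise of 7.88-fold (log2 difference 2.98 ± 0.36 SE, limma adjusted p = 0.0162). COX3 (Q0275), a subunit of cytochrome c oxidase, had 466.2 and 846.5 on day 20 against 116.9 and 151.0 on day 2, a rise of 4.73-fold (limma adjusted p = 0.0309). COX2 (Q0250), another subunit, had 149.8 and 260.0 on day 20 against 39.6 and 50.3 on day 2, a rise of 4.42-fold. Culture 2 was the brighter culture on both days in all of these, and the days do not overlap.

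SCEI (Q0160), which encodes a homing endonuclease within an intron, rose 7.45-fold, with 181.3 and 426.0 on day 20 and 26.0 and 53.5 on day 2. The open reading frame Q0255 rose 4.91-fold by the probe set used, with its day 2 signal of 9.2 in culture 1 set to the floor, and its other probe set, near the floor, gave 0.13 on the log2 scale. COB (cytochrome b) had 262.4 and 490.0 on day 20 against 91.1 and 84.0 on day 2, and COX1 had 3804.3 and 4729.1 against 2054.7 and 1423.6. Both passed on the 4 compared arrays alone. The nuclear genes of the respiratory chain and ATP synthase had a median of 0.18 over 43 members. On the 4 arrays 1 of them, the haem-dependent repressor gene ROX1, passed, lower (log2 difference -0.98), which is 2.33% of the list against 3.24% of all genes, and none passed on the 8 arrays, where 0.757% of all genes did. Proteins of the mitochondrial ribosome had a median of 0.39 over 71 members, of which 58 were above 0 in both cultures (51.6% of all genes were) and 7 passed, all higher, on the 4 compared arrays alone, 9.86% against 9.84% of all genes.

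Small nuclear RNAs, which build the spliceosome, had a median log2 difference of 2.27. All 4 tested passed, higher, on the 4 compared arrays alone and 2 on the 8 arrays, against 9.84% and 0.523% of all genes. SNR14 (U4) had signals of 312.6 and 333.6 on day 20 and of 71.9 and 55.9 on day 2, a rise of 5.09-fold (log2 difference 2.35 ± 0.28 SE, limma adjusted p = 0.0162). SNR6 (U6) had 52.9 and 111.9 on day 20 against 18.3 and 15.6 on day 2, a rise of 4.55-fold (limma adjusted p = 0.0352). SNR7-L (U5) and SNR19 (U1) were at 2.45 and 1.61 and missed the threshold on the 8 arrays (limma adjusted p = 0.0556 and 0.0717).

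Small nucleolar RNAs, which guide the modification and cleavage of ribosomal RNA, behaved likewise, with a median of 1.26 over 48 tested. There were 6 rises on the 8 arrays and 31 on the 4 compared arrays alone. These are 12.5% and 64.6% of the list, against 0.523% and 9.84% of all genes. SNR128 (U14), needed to mature the small-subunit RNA, had 412.8 and 359.3 on day 20 and 66.5 and 78.6 on day 2, a rise of 5.33-fold (limma adjusted p = 0.0177). SNR13 had 310.9 and 291.6 on day 20 against 58.6 and 40.6 on day 2, a rise of 6.17-fold (limma adjusted p = 0.0162). SNR44, SNR11 and SNR36 rose 4.12-fold, 4.0-fold and 3.47-fold, and SNR3 was at least 4.37-fold higher on day 20.

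Transfer RNA genes gave 9 of the 29 rises, from 88 tested, which is 10.2% of the list against 0.523% of all genes. YNCM0020W had signals of 89.6 and 178.1 on day 20 and of 6.4 and 9.8 on day 2, at least 11.2-fold higher on day 20. Both of its day 2 signals were set to the floor, so it entered the test through day 20 alone and its p-value is not given. SUF6, a glycine tRNA gene, had 359.6 and 251.8 on day 20 against 71.1 and 42.0 on day 2, and SUF1, also a glycine tRNA gene, had 336.4 and 227.2 against 51.2 and 49.6. The days of these genes do not overlap. The others called were YNCE0008C, YNCD0014C, YNCD0009W, YNCD0004W, YNCK0012C and SUP51. Of the 88 probe sets, 87 carry a suffix given where a full set of unique probes could not be chosen, so tRNA copies share their signal and 9 calls are not 9 separate genes. The median was 0.73, but it was 0.38 in culture 1 and 1.2 in culture 2, and 0.46 without the day 20 array of culture 2.

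Several array measures stand beside these rises. The labelled material was prepared as mRNA, and tRNAs, small nuclear and nucleolar RNAs and mitochondrial transcripts normally lack the long poly(A) tail of mRNAs. The median of the small nucleolar RNAs was 1.0 in culture 1 and 1.47 in culture 2. That of the small nuclear RNAs was 1.97 and 2.66, and that of the mitochondrial genes 1.02 and 1.76. The ACT1 ratios were 1.62 on day 20 and 1.49 on day 2 in culture 1, and 31.8 and 1.94 in culture 2. The summed signal of 10 ribosomal RNA control probe sets was 992 and 213 on day 20 (cultures 1 and 2) and 541 and 184 on day 2. The brightest of the 10 had 652.0 and 67.0 on day 20 against 269.5 and 74.8 on day 2, so it was lower on day 20 in culture 2. In that culture several of the others lay under the floor, and the median signal of the array also rose, from 98.5 to 122.1. Another of the 10 was higher on day 20 in both cultures, with 90.6 and 56.2 against 60.9 and 35.8 on day 2. A further probe set had 74.5 and 27.6 on day 20 against 56.8 and 36.8 on day 2, so it was lower in culture 2. The probe sets thus differed in direction in culture 2, and a rise of ribosomal RNA was not tested. The part of RNA preparation in the rises of the small RNAs and mitochondrial transcripts was not tested.

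Ribosome biogenesis factors, the proteins that assemble ribosomes, had a median log2 difference of 0.26 over 132 members, against 0.23 for all genes. Without the day 20 array of culture 2 these medians were 0.41 and 0.26. None passed on the 8 arrays, and 11, among them REA1, NOP16 and KRR1, passed on the 4 compared arrays alone, all higher. That is 8.33% of the list, below the 9.84% of all genes called higher. With each array centred on its median, 1 passed higher and 1 lower, where 134 of all 5547 genes were higher and 243 lower, and the list's median was -0.04. Cytosolic ribosomal proteins had a median of -0.16 over 80 members with 1 call in each direction on the 4 arrays (1.25% each), RPS22B higher and RPL9A lower. Aminoacyl-tRNA synthetases had a median of -0.31 over 21, with KRS1 and TYS1 lower there (9.52%) and 0 higher. Of all genes, 9.84% were higher and 3.24% lower in that fit.

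Amino acid biosynthesis had a median of -0.44 over 69 members, with -0.21 in culture 1 and -0.57 in culture 2, whose day 20 array had the high ACT1 ratio. Of the members, 46 were below 0 in both cultures, 66.7% against 19.9% of all genes. On the 4 compared arrays alone 11 were lower and 2 higher, 15.9% and 2.9% of the list against 3.24% and 9.84% of all genes, and none passed on the 8 arrays. ASN1 (asparagine synthetase) had signals of 449.6 and 571.3 on day 20 against 1081.5 and 1339.8 on day 2, and HIS1 (the first enzyme of histidine synthesis) had 363.5 and 310.0 against 810.0 and 671.4. THR1, HOM3 and HOM2 of the threonine route were at log2 differences of -1.11, -0.92 and -1.09. ARO9, an aromatic aminotransferase that also serves breakdown, went the other way (40.8 and 66.0 on day 20, against 13.4 and 26.2 on day 2).

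Stress and reserve genes are the classes that Rim15 is known for. Of 50 Msn2/4-type stress genes, TKL2 alone passed on the 8 arrays, and the median of the list was 0.04, or -0.08 without the day 20 array of culture 2. On the 4 compared arrays alone 3 were higher and 4 lower, 6% and 8% of the list against 9.84% and 3.24% of all genes. HSP12, a membrane-protecting stress protein, had signals of 988.0 and 537.2 on day 20 against 2103.7 and 1062.3 on day 2, and HSP26, a small chaperone, had 594.5 and 325.0 against 989.6 and 681.6. In both genes culture 1 was the brighter on each day, and the days do not overlap.
The 10 trehalose genes gave no call in either fit, with a median of 0.01. TPS1, trehalose-6-phosphate synthase, had 1020.2 and 1148.3 on day 20 against 1214.8 and 1071.2 on day 2. The 19 glycogen genes had a median of 0.31 and no call on the 8 arrays, and SGA1 (glucoamylase), PIG2 and GLG2 passed, higher, on the 4 arrays (15.8% of the list, against 9.84% of all genes) but not with median centring. Stationary-phase genes had a median of -0.06 over 24 (-0.21 without the day 20 array of culture 2). On the 4 arrays 6 of them were lower, SNZ1 and SNO1 (vitamin B6 synthesis) included, and 2 higher. These are 25% and 8.33% of the list, against 3.24% and 9.84% of all genes. Proteasome genes had a median of 0.04 over 38 with no call in either fit.

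**Figure D4:**
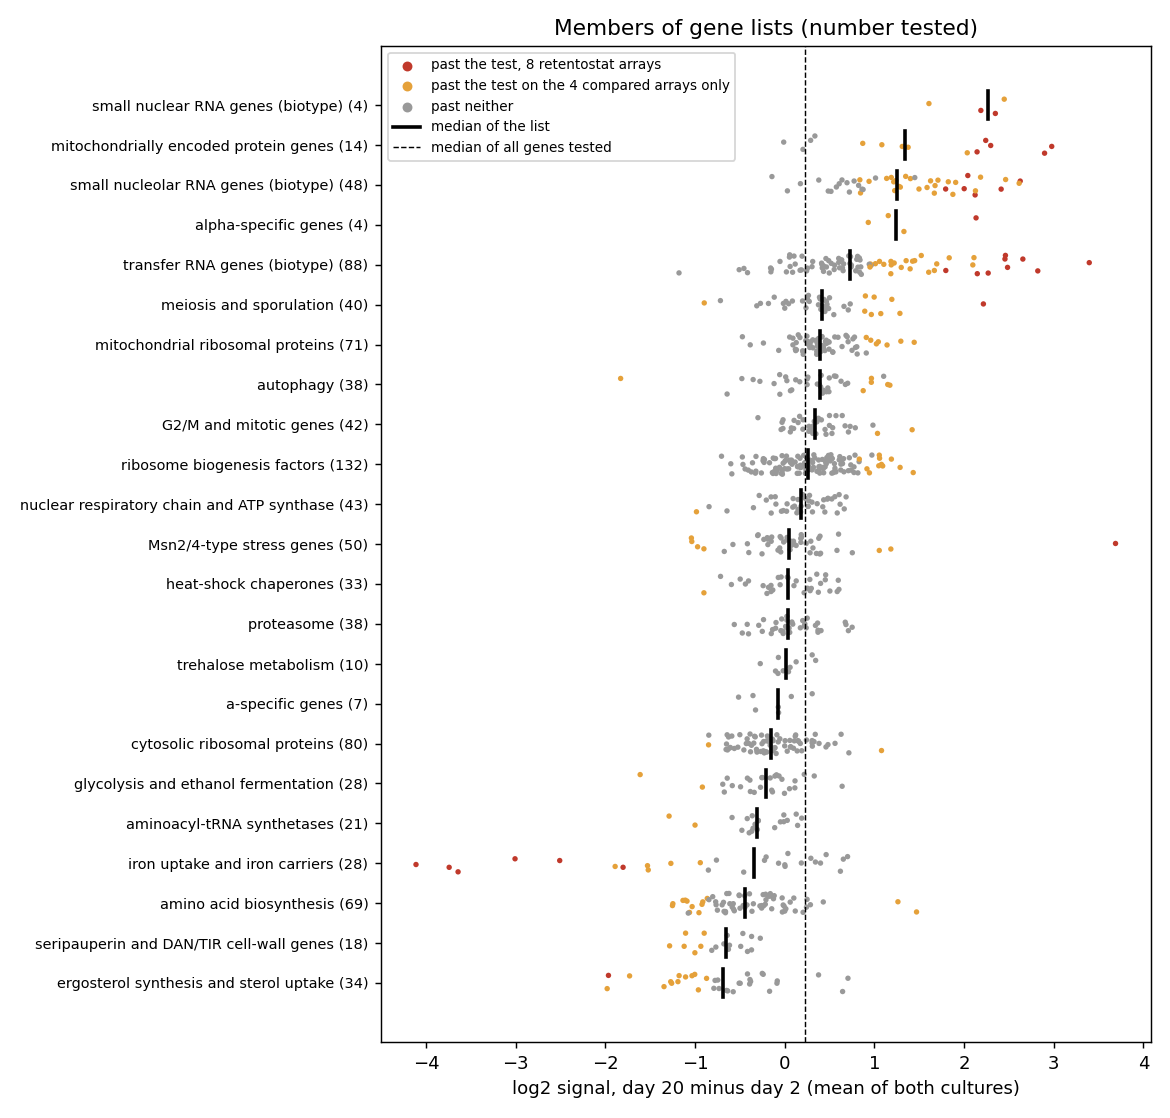
Log2 signal on day 20 minus day 2, as the mean of both cultures, for each tested member of 23 gene lists; the black bar is the median of a list and the dashed line the median of all genes tested, 0.23. Red points passed on the 8 retentostat arrays, orange points on the 4 compared arrays alone and grey points neither; the top lists (small nuclear RNAs, median 2.27) lie right of the line and the bottom ones (ergosterol, median -0.69) left of it.

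Carbon metabolism held changes in both directions, all on the 4 compared arrays alone. HXT1, a low-affinity hexose transporter, had signals of 42.5 and 41.3 on day 20 against 15.6 and 18.2 on day 2, and HXT4 had 69.2 and 54.5 against 30.6 and 27.1. Of 18 hexose transporter and sensor genes 3 were higher and 1 lower, 16.7% and 5.56% against 9.84% and 3.24% of all genes. With median centring 1 was higher and 1 lower, against 134 and 243 of all 5547 genes. ALD4, the mitochondrial aldehyde dehydrogenase, had 467.3 and 463.0 on day 20 against 2312.7 and 1408.8 on day 2 (log2 difference -1.96, limma adjusted p = 0.0584 on the 8 arrays). FBP1 (fructose-1,6-bisphosphatase) and MLS1 (malate synthase), which are needed for growth on carbon sources other than sugar, were at 1.49 and 1.40. PDC6, a minor pyruvate decarboxylase, and HXK2, the main hexokinase, were at -1.61 and -0.92, and the median over 28 glycolysis and fermentation genes was -0.21. That median was -0.42 without the day 20 array of culture 2 and -0.02 with quantile normalization.
Peroxisomal oxidation of fatty acids had 6 members lower and 2 higher of 42, 14.3% and 4.76% against 3.24% and 9.84% of all genes. POX1 (acyl-CoA oxidase) had 59.9 and 47.7 on day 20 against 167.5 and 138.4 on day 2, POT1 (thiolase) had 78.0 and 42.8 against 220.5 and 121.9, and FAA1 (an acyl-CoA synthetase) had 245.1 and 249.0 against 68.3 and 112.0. The median of that list was -0.04.

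Among other lists, 24 of 38 autophagy genes lay above 0 in both cultures, against 51.6% of all genes, with 5 higher and 1 lower on the 4 compared arrays alone, 13.2% and 2.63% against 9.84% and 3.24% of all genes. Meiosis and sporulation genes had a median of 0.42 over 40, with SPS18 as the 1 call on the 8 arrays and 8 higher and 1 lower on the 4 arrays (20% and 2.5% of the list). Of 25 genes for mating and pheromone response 5 (20%) were higher, among them PRM3, needed for nuclear fusion (52.7 and 86.3 on day 20, against 6.8 and 20.1 on day 2). Of 42 G2/M genes, CLB1 (a B-type cyclin) and FKH1 (a transcription factor) were higher, at 1.42 and 1.03, which is 4.76% of the list and below the share of all genes. Of 42 genes in Rim15 and nutrient signalling, TOR2 was higher (330.0 and 410.7 on day 20, against 149.2 and 210.1 on day 2) and MSN2 lower (169.8 and 94.9, against 338.2 and 192.5), 2.38% of the list each. These calls are from the 4 compared arrays alone. With each array centred on its median they came to 0 higher and 1 lower for autophagy, 1 and 1 for meiosis and sporulation and 1 and 0 for mating. They came to 1 and 0 for G2/M and 0 and 1 for signalling, where 134 of all 5547 genes were higher and 243 lower.

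Oxidative stress defence had a median of 0.09 over 34 members, and AHP1 (a thioredoxin peroxidase) was lower (347.1 and 203.5 on day 20, against 883.4 and 798.7 on day 2) while GPX1 (a glutathione peroxidase) was higher (795.2 and 749.6, against 241.2 and 318.5). Nitrogen-catabolite-repressed genes had a median of -0.16 over 29 with 4 higher and 2 lower, and UGA4, a GABA permease, had 113.6 and 125.3 on day 20 against 40.9 and 41.8 on day 2. Sulfur and methionine genes had a median of -0.13 over 35 with 2 higher and 5 lower, SAM4 among them. Cell-wall proteins of the PIR and other families had a median of 0.07 over 43 with 4 higher and 3 lower. G1/S genes had a median of 0.20 over 53, with 4 higher and 2 lower. The medians were 0.10 for 25 genes of gluconeogenesis and the glyoxylate cycle (3 higher, 3 lower), 0.03 for 24 of the TCA cycle (1 higher, 2 lower) and -0.10 for 13 of glycerol metabolism (2 higher, 2 lower). They were 0.31 for 23 phosphate genes (2 higher, 1 lower), -0.21 for 21 of purine synthesis (1 lower) and -0.14 for 16 vacuolar genes (1 higher). Heat-shock chaperones stood at 0.04 over 33 (1 lower), translation factors at -0.11 over 34 and RNA polymerases I and III at 0.24 over 36 (1 higher and 1 lower each), and 4 histone genes at 0.21 with no call. All these calls are from the 4 compared arrays alone, where 9.84% of all genes were higher and 3.24% lower, except that SAM4 passed on the 8 arrays too.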

How the data were processed

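One-colour Affymetrix yeast arrays were hybridised with biotin-labelled material from RNA extracted with hot phenol, per the labels' protocols. The authors deposited 1 intensity per probe set on a linear scale, from GCOS 1.2 per the submitters' processing notes, with the settings for background, summary and scaling not given in the sources used here. With 2% of probe sets trimmed at each end, array means agreed within 0.0311% over the 11 arrays, a sign of global scaling.

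Signals under 12 were set to 12 and taken to log2. Each gene was represented by its single-gene probe set with the highest mean; 315 genes had over 1. Of the other probe sets, 328 named several genes, 2443 none and 60 were controls. Symbols come from the platform annotation, updated through a gene table that matched all 6504 probe sets. Coordinates are not printed because the build is not stated. Of the genes tested, 77 were at or under the floor on day 2 only and 33 on day 20 only. They passed the filter through the day where they were high, and folds of called genes of this kind were computed against the floor as lower bounds. Setting both signals of a day to 12 hides their spread, so p-values of these genes with that floor are not printed.

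Limma 3.58.1 in R 4.3.3 (lmFit, eBayes) fitted 1 mean per retentostat day and a culture term to 8 arrays, with 3 residual and 5.15 prior degrees of freedom, two-sided, with Benjamini-Hochberg adjustment over 5547 genes and a threshold of 0.05. The alternatives concerned the arrays, the culture term, the floor, the scaling, the filter, the probe set and the variance prior. All adjusted p-values of single genes come from this fit unless the 4 arrays are named. The script was tested on simulated data. The pairing comes from the labels: the 4 retentostat arrays of a replicate number carry 1 culture code. The difference between the cultures correlated across genes between days at 0.227 (days 2 and 9) to 0.691 (days 9 and 16), and at 0.353 between days 2 and 20. The highest values, 0.498 to 0.691, were among days 9, 16 and 20, when the culture 2 arrays alone had high ACT1 ratios. On those days the culture and the ACT1 ratio cannot be told apart, so these values do not check the pairing. The number of arrays limits the precision.

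Genes were named by a rule: the 12 largest rises and 12 largest falls among called genes with a mean signal of at least 50 on the higher day and no overlap, up to 4 called members of each of 46 gene lists, and RIM15. It gave 32 called genes. The other 10 called genes, and those past the test on the 4 compared arrays alone or past neither, were named after their values were seen. The comparison, its members and the lists were chosen with earlier results of these data known. A planned description of promoter motifs was not analysed here. One of the lists is not reported here.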

Additional observations from a re-analysis of the deposited data

How the results depend on the processing

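All 42 called genes kept their direction in every alternative that tested them. That says little, because most alternatives leave the log2 difference unchanged and the called differences were at least 1.79 in size. The number of genes that passed did move. Without the culture term (no replicate block) on the 8 arrays, limma called 1 gene, 0 higher and 1 lower, with 511 at an unadjusted p under 0.05. On the 4 compared arrays alone with the replicate block 726 genes passed (546 higher, 180 lower), and without the culture 2 arrays of days 9 and 16 the counts were also 726, 546 and 180, since the lone arrays add no spread. Without the block the 4 arrays gave 28 (19 higher, 9 lower), and culture as a random block gave 30 (19 higher, 11 lower). Leaving out any of the 4 arrays gave 0 calls (0 to 0 changed, higher and lower), and keeping the dim genes gave 0 (0 higher, 0 lower), with 984 at an unadjusted p under 0.05. A floor of 6 gave 46 higher and 16 lower, and a floor of 24 gave 19 and 10, with SAM4 and SNR3 among the genes that no longer passed. The split depends on the scaling: median centring gave 24 higher and 35 lower, quantile normalization 21 and 20, and the 4 arrays with the block and median centring, chosen after seeing the data, 377 (134 higher, 243 lower). Without all 3 arrays of high ACT1 ratio, with chemostat arrays kept and no block, also chosen after seeing the data, 4 genes passed (3 higher, 1 lower); with the culture term no residual degree of freedom was left, so that alternative was not run. The cause of these moves was not tested.

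Median centring moved the median of all genes to -0.07 and quantile normalization to 0.01. The medians of the iron, ergosterol, seripauperin, amino acid, mitochondrially encoded, small RNA and alpha-specific lists kept their sign under both. Those of the Msn2/4-type, trehalose, ribosome biogenesis and silencing lists changed sign under both. Under median centring on the 4 arrays, 134 of all 5547 genes were called higher and 243 lower. Calls were 0 higher and 13 lower of 28 for iron, 0 and 16 of 34 for ergosterol and 0 and 9 of 18 for the seripauperin family. They were 1 and 17 of 69 for amino acids, 7 and 0 of 14 for mitochondrial genes and 21 and 0 of 48 for small nucleolar RNAs.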

Other observations

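Probe sets annotated to no gene were left out of the comparison above. When all probe sets were fitted together, 8 of 1679 such probe sets passed, all of them higher on day 20 (0.476%), against 28 of 6203 probe sets annotated to 1 gene (20 higher, 8 lower) and 1 of 307 annotated to several genes. Their median log2 difference was 0.32, against 0.19 for probe sets of 1 gene. The transcripts behind them are not named in the sources used here.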
